A study of Mus musculus with 8 samples.

Results

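The 21 genes described here lost most of their transcript under MEK inhibition in each of 4 murine pancreatic cancer cell lines. They were selected on the measured values themselves. A gene was taken if its normalized count was 50 or more in every DMSO library and if trametinib + 1 was lower than DMSO + 1 by 6-fold or more in each line. Of 34478 genes listed, 11033 had every DMSO count at 50 or more and 28 also met the fold limit, which is 0.254% of those 11033. Symbols of the form Gm with digits (Gm45184) and a few genes set aside by name (Etv4, Etv5, Mcpt8, Mrc1, Prl2c2 and Spry4) were left out, which gave the 21. Because the fall chose the genes, it is given below as a description, with no test.

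The study grew 4 primary lines of pancreatic ductal adenocarcinoma (PDAC), numbered #1, #3, #5 and #10, from a genetically engineered mouse model and sequenced polyA RNA from stranded libraries. Each line gave 1 library with the solvent DMSO and 1 after 48 h with trametinib, an inhibitor of the kinases MEK1 and MEK2, at that line's IC50. All 8 libraries share 1 genotype. Ptf1a is wt/Cre, so that Cre is made in the pancreatic lineage, where it deletes the Trp53 loxP/loxP alleles. By the labels the groups thus differ in treatment, in lines that by design all lack Trp53.

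In the RAF-MEK-ERK cascade, a chain of kinases that carries growth signals, ERK phosphorylates transcription factors that switch on early genes, growth factors and feedback inhibitors. FOS and EGR proteins, made within the first hour of a growth signal, carry that signal on to later genes. MEK inhibitors cut the cascade just above ERK, and transcripts that need continuous ERK activity are lost.

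Library totals ran from 30680091 to 36385719 normalized counts, and the step between low values put depth at about 29400000 to 46000000 reads. At that depth 3 reads, taken as the floor of detection, were worth 2.33 to 3.72 normalized counts. Keratin genes of ductal epithelium were abundant (Krt8 27587 to 132480, Krt19 26578 to 69253), and the 12 listed ductal markers summed to 265730 to 404610 with DMSO and 141170 to 271370 with trametinib. Epcam, a defining epithelial adhesion gene, was listed at 0 in 6 of 8 libraries and at 10.4 and 3.75 in line #3. Each line was sequenced 1 time per treatment, so p-values measure the spread of the change between these 4 lines only. In RNA from whole cultures, fewer cells of a type and less RNA per cell cannot be told apart.

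With DMSO the 21 genes spanned a wide range of level. Per kilobase of exon, which allows genes to be compared, mean DMSO levels ran from 44.0 for Sh2d1b1 to 7579 for Hmga1, with Cdh17 at 4277, Areg at 1676, Fosl1 at 1618 and Acan at 1577 normalized counts per kilobase. With trametinib the same quantity was 0.921 for Sh2d1b1, 580.6 for Hmga1 and 296.3 for Cdh17. The median log2 change over the 21 genes was -4.07 in line #1, -3.93 in #3, -3.92 in #5 and -3.87 in #10, or -3.95 ± 0.087 (SD, n = 4 lines). Over the 11033 genes with every DMSO count at 50 or more the median of the mean change was -0.07. In 9 of the 21 the mean fall was 16-fold or more, and 10 were lower by 10-fold or more in each of the 4 lines.

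**Figure D1:**
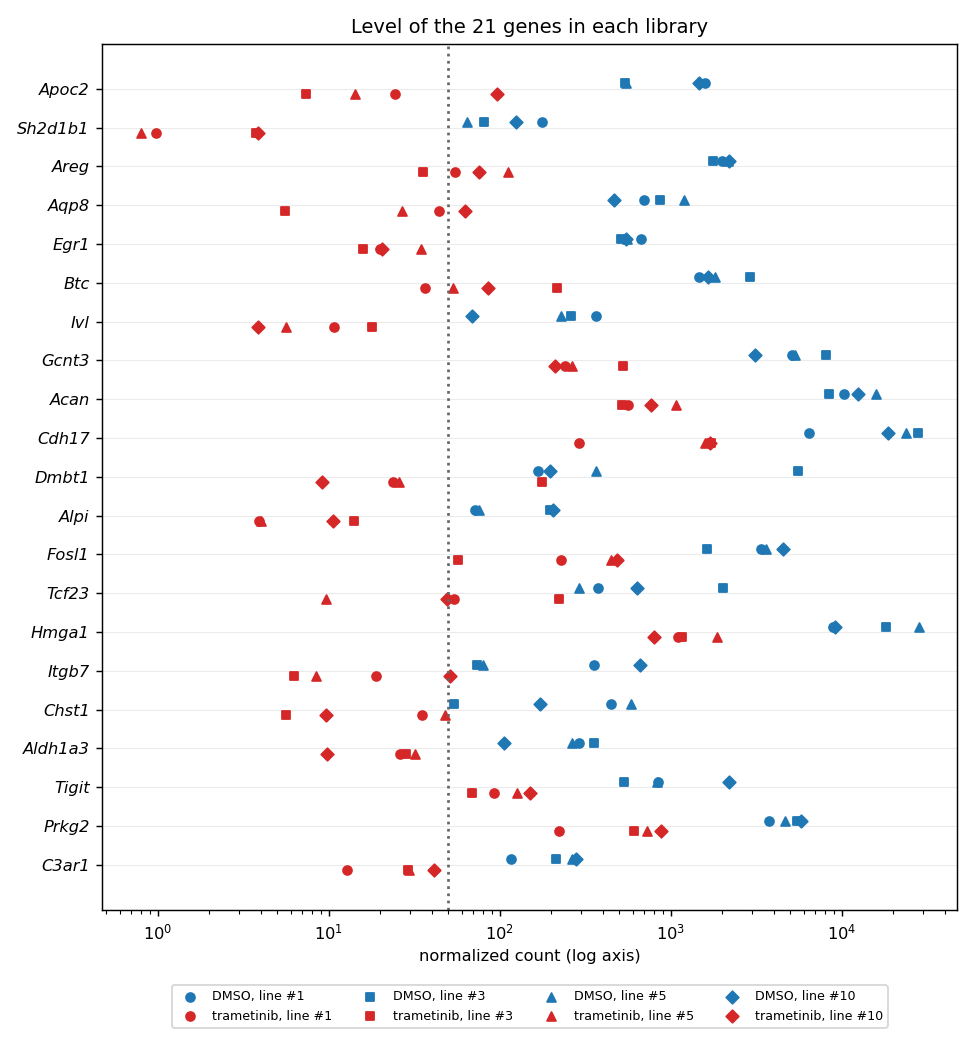
Normalized counts (log axis) of the 21 genes, 1 row per gene, with DMSO in blue, trametinib in red, a marker shape per line and a dotted line at the DMSO minimum of 50. Rows are ordered by mean fall, from Apoc2 at the top to C3ar1. No trametinib point reaches the lowest DMSO point of its gene except in Dmbt1 (175.6 in line #3 against 166.7 in line #1).

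The plot of levels shows that treated and untreated libraries were separate in nearly all of the genes, although the choice of genes makes that likely. Dmbt1 was the exception, because its treated level in line #3 lay above its untreated level in line #1. The lines differed more with DMSO in these genes than in others: the highest DMSO library was a median 2.86-fold above the lowest, against 1.48-fold over the 11033 genes. In 5 of the 21 the DMSO range exceeded 5-fold (Dmbt1, Chst1, Itgb7, Tcf23 and Ivl), against 2.67% of the 11033 genes. The line with the highest count was the same with and without trametinib in 13 of 21 genes (61.9%, against 57.5% of the 11033).

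Line #5 gave the smallest fall in 8 of the 21 genes and line #1 the largest in 8. Lines #3 and #10 each gave the smallest fall in 5 genes, and line #3 the largest in 7. The evenness of the change also differed. Acan had the narrowest spread of log2 change over the lines (range 0.33), followed by C3ar1 (0.40) and Alpi (0.44), and Aqp8 the widest (4.17).

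**Figure D2:**
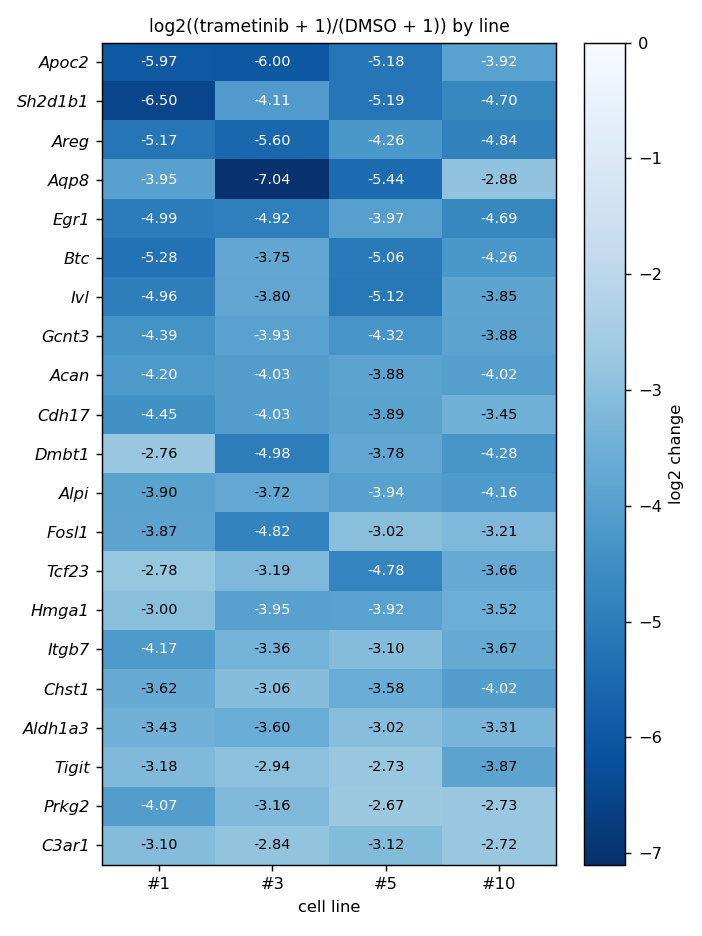
Log2((trametinib + 1)/(DMSO + 1)) of each gene (rows, ordered by mean) in each line (columns), with the value printed in the cell and darker blue for a larger fall. Aqp8 in line #3 (-7.04) is the darkest cell and Prkg2 in line #5 (-2.67) holds the smallest fall. The values of Sh2d1b1 in lines #1 and #5 rest on treated counts under the floor of detection.

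Promoter sequence was available from RefSeq (GRCm38.p6, 250 bases before to 50 after the start) for 14 of the 21 genes, the exceptions being Egr1, Fosl1, Cdh17, Gcnt3, Dmbt1, Aldh1a3 and Prkg2. Motifs of factors that act at the end of growth factor signalling were searched as fixed letters on both strands. The AP-1 letters TGANTCA, the site of FOS-JUN dimers, were in 3 of 14 promoters (21.4%), those of Sh2d1b1, Ivl and C3ar1, against 7.93% of 16844 promoters in the table and 5.88% of the 8472 whose gene had every DMSO count at 50 or more. The ETS letters CCGGAA were in 2 (14.3%, Tcf23 and Apoc2), against 22.3% and 34.5%. The cAMP response element TGACGTCA was in Areg (7.14%, against 2.77% and 3.90%). The E-box CACGTG was in Aqp8 (7.14%, against 9.61% and 12.3%), and CCAAT was in Acan (7.14%, against 41.8% and 43.6%). Neither of the E2F letter strings TTTCCCGC and TTTGGCGC was present. No letters of one motif contain those of another. Windows of 60 bases upstream of the RefSeq start are printed for 4 genes because these hold the growth factor and AP-1 or ETS letters that the text refers to, 5′ to 3′ on the strand of the gene, with the motif in capitals. They lie at chr5:91139512-91139571 on the plus strand (Areg), chr1:170277085-170277144 and chr1:170277119-170277178 on the plus strand (Sh2d1b1, upstream and downstream site), chr3:92573818-92573877 on the minus strand (Ivl) and chr5:30968533-30968592 on the plus strand (Tcf23).
Areg: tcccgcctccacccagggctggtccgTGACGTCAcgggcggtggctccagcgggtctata
Sh2d1b1 upstream site: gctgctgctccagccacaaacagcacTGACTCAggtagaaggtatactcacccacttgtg
Sh2d1b1 downstream site: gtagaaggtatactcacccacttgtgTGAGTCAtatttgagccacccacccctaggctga
Ivl: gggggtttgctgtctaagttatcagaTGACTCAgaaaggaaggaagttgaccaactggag
Tcf23: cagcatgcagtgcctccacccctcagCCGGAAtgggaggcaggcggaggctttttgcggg

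The motif began 61 bases before the start in Areg, 207 and 173 bases before it in Sh2d1b1, 116 in Ivl and 118 in Tcf23. In C3ar1 the AP-1 letters began 22 bases before the start. These matches describe letters in a window, with 14 promoters behind each share.

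Among the 21 genes, the ligands of the EGF receptor family were Areg and Btc. Amphiregulin, encoded by Areg (chromosome 5, 91139599 to 91148432, GRCm38), is a growth factor that epithelial cells shed to stimulate themselves and their neighbours. Areg stood with DMSO at 1994, 1776, 2171 and 2204 normalized counts in lines #1, #3, #5 and #10, and with trametinib at 54.5, 35.8, 112.5 and 75.9. Its DMSO level was the most even of the 21 genes, with the highest library 1.24-fold above the lowest, and the fall ran from 19.1-fold in line #5 to 48.3-fold in line #3. Betacellulin, encoded by Btc (chromosome 5, 91357261 to 91402994), binds both the EGF receptor and ERBB4. Btc stood at 1459, 2929.5, 1821 and 1649.8 with DMSO and at 36.5, 216.7, 53.6 and 85.1 with trametinib. Line #3 had the most Btc in both states and the smallest fall, 13.5-fold, while line #1 had the least in both and the largest fall, 39.0-fold.

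Areg and Btc start 263395 bases from each other, the closest pair of the 21. Ereg, the related ligand epiregulin in the same stretch of chromosome 5, missed the rule in 1 line. It stood at 2289, 1788.5, 2946 and 1208 with DMSO and at 305.7, 102.0, 383.1 and 202.1 with trametinib, and fell by 3.13 on the log2 scale (SE 0.25, limma adjusted p = 0.00032). Epgn, a further ligand gene there, had a mean below 10 normalized counts and was not tested. Parm1, which also lies next to Btc, rose (log2 change 0.98, SE 0.13, limma adjusted p = 0.0014). The receptor gene Egfr rose too, from 758.1 to 1559 in line #1, 596.6 to 1052 in #3, 2076 to 4672 in #5 and 1121 to 2682 in #10 (log2 change 1.07, SE 0.10, limma adjusted p = 0.00053). In the fit without the pairing of libraries by line, neither Parm1 nor Egfr passed (limma adjusted p = 0.054 and 0.15). Erbb4, the other receptor, did not exceed 8.13 normalized counts.

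Transcription and chromatin factors were Egr1, Fosl1, Hmga1 and Tcf23. EGR1 is a zinc finger factor induced within minutes of ERK activation. Egr1 (chromosome 18, 34859823 to 34864984) was at 666.9, 509.9, 558.7 and 550.5 normalized counts with DMSO, an even level (1.31-fold from lowest to highest), and at 19.95, 15.9, 34.7 and 20.4 with trametinib. The fall was between 15.7-fold in line #5 and 31.9-fold in line #1. Its relative Egr3 was low and fell as well, from 43.9 to 9.71 in line #1, 13.8 to 0.843 in #3, 19.8 to 5.05 in #5 and 9.35 to 0.867 in #10 (log2 change -2.33, SE 0.39, limma adjusted p = 0.0030).

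Fosl1 (chromosome 19, 5447547 to 5455946) encodes FRA-1, a FOS family member whose protein ERK stabilises. It was at 3366, 1639, 3629 and 4523 with DMSO and at 229.4, 57.2, 447.3 and 487.4 with trametinib. Line #3 was lowest in both states and had the largest fall, 28.2-fold, against 8.10-fold in line #5 and 9.26-fold in line #10. Of the 2033 exon bases of Fosl1, 1163 overlap Ccdc85b on the opposite strand. The libraries were stranded, but whether the counting used strand is not given in the sources used here.

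Other AP-1 genes went in both directions. Fosl2, its nearest relative, rose in 4 of 4 lines, from 3864 to 9200 in line #1, 2268 to 6549 in #3, 3223 to 9552 in #5 and 2919 to 6199 in #10 (log2 change 1.36, SE 0.11, limma adjusted p = 0.00032). The dimer partners Jun (log2 change 1.76, SE 0.32, adjusted p = 0.0038), Jund (1.02, SE 0.15, adjusted p = 0.0020) and Junb (0.41, SE 0.12, adjusted p = 0.029) also rose in limma. Fos and Fosb fell, by 1.89 (adjusted p = 0.0010) and 1.19 (adjusted p = 0.012) on the log2 scale in limma. The call of Junb ended without the pairing, with no filter on low values, with eBayes without trend and without line #1, #5 or #10, and that of Fosb without the pairing and without line #1.

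Hmga1 (chromosome 17, 27556497 to 27563674) encodes a chromatin protein that binds AT-rich DNA and is abundant in embryonic and tumour cells. It was at 8903, 18172, 28175 and 9174 normalized counts with DMSO and at 1110.1, 1171, 1857 and 796.7 with trametinib, a fall of 8.01-fold in line #1 to 15.5-fold in line #3. Its level is uncertain where reads match more than 1 place in the genome. Hmga2, the other gene of the family, fell in 4 of 4 lines (log2 change -2.29, SE 0.23, limma adjusted p = 0.00057).

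Tcf23 (chromosome 5, 30968662 to 30977018), a helix-loop-helix factor that dampens the binding of other such factors to DNA, ranged from 290.6 to 2032 with DMSO and from 9.60 to 221.7 with trametinib. The fall was smallest in line #1 at 6.87-fold and largest in line #5 at 27.5-fold. Of 8 relatives by symbol that were tested, 3 fell (1 without the pairing of libraries by line) and 1 rose in limma. The shares over all genes tested were 25.6% lower and 27.3% higher. Shared Tcf symbols do not mean close kinship.

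Cdh17, Gcnt3, Dmbt1, Alpi and Aqp8 are described side by side because each is known from mucosal or intestinal epithelium, a grouping by hand with no test behind it. Cdh17 (chromosome 4, 11758147 to 11817895) encodes LI-cadherin, which joins cells of the gut lining. It was at 6402, 27923, 23659 and 18550 with DMSO and at 292.6, 1713, 1596 and 1701 with trametinib, so that line #1 stood below the other 3 lines in both states. The fall ran from 10.9-fold in line #10 to 21.8-fold in line #1. The classical cadherin gene Cdh1 did not pass the test (log2 change -0.02, SE 0.11, limma adjusted p = 0.88). Cdh2 (1.13), Cdh3 (1.29), Cdh6 (3.06) and Cdh10 (0.83) rose on the log2 scale, and Cdh16 fell by 1.52 (limma adjusted p from 0.00057 for Cdh6 to 0.049 for Cdh16). Without the pairing, Cdh3, Cdh10 and Cdh16 did not pass (limma adjusted p = 0.14, 0.63 and 0.40). The calls of Cdh10 and Cdh16 also ended with no filter, with eBayes without trend and with 3 of the 4 lines left out in turn, and that of Cdh16 with a pseudocount of 0.1 and with equal totals.

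Gcnt3 (chromosome 9, 70031496 to 70038088) encodes an enzyme that branches the sugar chains of mucins. It was at 5092, 8087, 5335 and 3105 with DMSO and at 241.1, 528.4, 266.3 and 209.8 with trametinib, and the lines kept the same order in both states. Dmbt1 (chromosome 7, 131032053 to 131121630), a scavenger receptor glycoprotein of mucosal surfaces, was at 166.7, 5591, 364.2 and 196.3 with DMSO and at 23.8, 175.6, 25.6 and 9.18 with trametinib. Line #3 thus held 33.5-fold more Dmbt1 than line #1 with DMSO, the widest gap between lines among the 21 genes, and still had the largest fall, 31.7-fold against 6.77-fold in line #1.

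Alpi (chromosome 1, 87098002 to 87101606), the intestinal alkaline phosphatase, was low throughout. It was at 72.2, 197.4, 75.8 and 206.2 with DMSO and at 3.91, 14.1, 4.01 and 10.6 with trametinib. The fall of Alpi was even, between 13.2-fold in line #3 and 17.9-fold in line #10. Its close copies Akp3 and Alppl2 did not exceed 4.92 normalized counts in any library.

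Aqp8 (chromosome 7, 123462291 to 123468004), a water channel, was at 698.7, 862.6, 1202 and 466.2 with DMSO and at 44.2, 5.55, 26.7 and 62.7 with trametinib. Its fall was 7.34-fold in line #10 and 131.9-fold in line #3, the widest spread between lines of the 21 genes. Aqp5, the other abundant water channel gene to fall, went from 2565 to 590.2 in line #1, 10934 to 1287 in #3, 1935.5 to 235.7 in #5 and 1240 to 142.9 in #10 (log2 change -2.84, SE 0.18, limma adjusted p = 0.00020). Aqp11 fell by 1.29 (limma adjusted p = 0.019), a call that ended without the pairing and without line #10, and Aqp1, Aqp3 and Aqp9 did not pass the test. Without line #3, where it was higher with trametinib, Aqp1 passed as lower (log2 change -1.27, limma adjusted p = 0.0043).

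A list of 16 genes of intestinal epithelium, drawn up after values were seen, was used to set these genes beside others of that tissue. Of 13 tested, 4 fell (Cdx2, Hnf4a, Krt20 and Lgals4) and 1 rose (Anpep) at an adjusted p under 0.05, or 30.8% lower and 7.69% higher, against 25.6% lower and 27.3% higher over the 15888 genes tested. Without the pairing of libraries by line, 1 of the 13 fell (Cdx2) and 0 rose, in a fit with fewer calls over all genes tested too. The call of Krt20 also ended with eBayes without trend and without line #3, #5 or #10, and that of Anpep with a pseudocount of 0.1, with no filter, with eBayes without trend and without line #1, #5 or #10. By line, 3 of the 13 were lower in 4 of 4 lines and 0 were higher in 4 of 4. Over all genes tested, 30.9% were lower in 4 of 4 lines and 34.7% were higher in 4 of 4. Cdx2, the homeobox factor of the gut, fell from 757.9 to 210.3 in line #1, 3229 to 1229 in #3, 1619 to 342.0 in #5 and 1419 to 415.6 in #10 (log2 change -1.81, SE 0.15, limma adjusted p = 0.00033). Vil1 did not pass the test (log2 change 0.58, limma adjusted p = 0.085), and passed as higher without line #3 (0.88, limma adjusted p = 0.0049).

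Ivl (chromosome 3, 92570902 to 92573735) encodes involucrin, a scaffold of the cornified envelope of squamous cells. It was at 363.8, 260.4, 228.4 and 69.0 with DMSO and at 10.8, 17.8, 5.61 and 3.85 with trametinib, with falls between 13.9-fold in line #3 and 34.7-fold in line #5. Other squamous genes, picked after values were seen, went in different directions. Krt13 fell by 3.64 (SE 0.43, adjusted p = 0.00095) and Sprr1a rose by 0.86 (SE 0.17, adjusted p = 0.0058) on the log2 scale in limma, and Tgm1 did not pass (log2 change -0.79, SE 0.50, adjusted p = 0.22). Without the pairing, Sprr1a did not pass. Without line #3, Tgm1 passed as lower (log2 change -1.45, limma adjusted p = 0.0060).

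Acan and Chst1 act on the matrix. Acan (chromosome 7, 79053483 to 79115099) encodes aggrecan, the large proteoglycan of cartilage. It was at 10339, 8460.2, 15879 and 12420 with DMSO and at 560.5, 517.1, 1080.5 and 765.7 with trametinib, so it was among the most abundant of the 21. The fall lay between 14.7-fold in line #5 and 18.4-fold in line #1, and the lines kept the same order in both states. Adamts5, an enzyme that cleaves aggrecan, rose from 16.3 to 215.9 in line #1, 11.5 to 94.4 in #3, 12.4 to 437.0 in #5 and 23.0 to 210.9 in #10 (log2 change 3.69, SE 0.38, limma adjusted p = 0.00059). Adamts4 did not pass the test (0.72, SE 0.26, limma adjusted p = 0.055). Has2, which makes the hyaluronan that aggrecan binds, fell (log2 change -2.49, SE 0.77, limma adjusted p = 0.032), with 2.08 and 2.81 normalized counts in line #3, where it was near the floor in both states. The call of Has2 ended without the pairing, with no filter, with eBayes without trend and without line #1, #5 or #10 (limma adjusted p from 0.057 to 0.13).

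Chst1 (chromosome 2, 92599707 to 92615250), a sulfotransferase for keratan sulfate, ranged from 54.0 in line #3 to 585.9 in line #5 with DMSO and from 5.62 to 48.0 in the same lines with trametinib. Its fall was between 8.32-fold and 16.3-fold. Of 7 relatives tested, Chst8, Chst12 and Chst15 rose, Chst4 fell and 3 did not pass, against 27.3% higher and 25.6% lower over all genes. Without the pairing of libraries by line, 1 rose (Chst15) and 0 fell, without line #1 the call of Chst8 ended, and without line #3 Chst4 was below the filter and was not tested. Chst15, singled out after its values were seen, rose by 3.04 on the log2 scale (SE 0.40, limma adjusted p = 0.0013).

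The remaining enzymes and secreted proteins were Apoc2, Prkg2 and Aldh1a3. Apoc2 (chromosome 7, 19671579 to 19677941) encodes the apolipoprotein that activates lipoprotein lipase, and had, with Sh2d1b1, the largest mean falls of the 21. The mean log2 change was -5.27 for Apoc2 and -5.12 for Sh2d1b1, and the place of Sh2d1b1 moved with the pseudocount, since its treated counts in lines #1 and #5 were under the floor. With a pseudocount of 0.1 the changes were -5.35 for Apoc2 and -5.73 for Sh2d1b1, and with a pseudocount of 5 they were -4.98 and -3.92. Apoc2 was at 1588, 538.6, 550.5 and 1471 with DMSO and at 24.4, 7.41, 14.2 and 96.1 with trametinib. The fall was 62.6-fold in line #1, 64.1-fold in #3, 36.3-fold in #5 and 15.2-fold in #10, where the most transcript remained. Of its 813 exon bases, 646 are shared on the same strand with the gene model Gm44805, so reads there can be assigned to either. The neighbouring apolipoprotein genes did not pass the test, with Apoe at a log2 change of 0.16 (SE 0.24, limma adjusted p = 0.61) and Apoc4 at 0.48 (SE 0.36, limma adjusted p = 0.29), and Apoc1 was listed at 0 in each library.

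Prkg2 (chromosome 5, 98929773 to 99037351) encodes a membrane-bound kinase activated by cyclic GMP. It was at 3784, 5456, 4643 and 5822 with DMSO and at 223.6, 608.3, 728.4 and 876.2 with trametinib. Its DMSO level was even over the lines (1.54-fold), yet the fall was 16.8-fold in line #1 against 8.96-, 6.37- and 6.64-fold in #3, #5 and #10. Prkg1, the other kinase gene of this kind, did not exceed 4.59 normalized counts.

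Aldh1a3 (chromosome 7, 66390890 to 66427517) makes retinoic acid from retinaldehyde. Its level ran from 105.5 to 356.6 with DMSO and from 9.71 to 31.9 with trametinib, with falls of 8.13-fold to 12.1-fold. Aldh1a1, which catalyses the same step, was singled out after its values were seen. It rose from 192.2 to 1059.8 in line #1, 152.7 to 1522 in #3, 88.9 to 693.9 in #5 and 628.3 to 1479.5 in #10 (log2 change 2.49, SE 0.32, limma adjusted p = 0.0012).

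Receptors and adaptors best known from blood cells were Tigit, Sh2d1b1, Itgb7 and C3ar1. Tigit (chromosome 16, 43648867 to 43664146) encodes an inhibitory receptor of T cells and natural killer cells. It was at 844.9, 536.4, 837.3 and 2204 with DMSO and at 92.2, 68.9, 125.6 and 149.6 with trametinib, and line #10 had both the highest level and the largest fall, 14.6-fold. Pvr and Nectin2, which encode ligands of TIGIT, rose by 0.88 (SE 0.13, adjusted p = 0.0021) and 0.73 (SE 0.11, adjusted p = 0.0020) on the log2 scale in limma. Without the pairing, Pvr did not pass.

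Sh2d1b1 (chromosome 1, 170277320 to 170286769) encodes an adaptor of the SLAM receptors. It was at 177.7, 81.1, 64.6 and 124.7 with DMSO and at 0.979, 3.75, 0.801 and 3.85 with trametinib. The treated counts of lines #1 and #5 were below the floor, so a fold is given for lines #3 and #10 alone, 17.3 and 25.9. The close copy Sh2d1b2 did not exceed 13.8 normalized counts, and Slamf7 did not exceed 1.87.

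Itgb7 (chromosome 15, 102215995 to 102231944), the integrin chain by which lymphocytes home to the gut, ranged from 74.0 to 659.3 with DMSO and from 6.30 to 50.9 with trametinib, with falls of 8.55-fold to 17.96-fold. Its partner chain Itga4 rose (log2 change 1.17, SE 0.24, limma adjusted p = 0.0061), but did not pass without the pairing. Of 7 other integrin beta genes tested, 4 rose and Itgb4 fell, against 27.3% higher and 25.6% lower over all genes tested. The call of Itgb4 ended without the pairing, with equal totals, with no filter, with eBayes without trend and without line #1 or #5. Itgb6, singled out after its values were seen, rose from 507.6 to 3557 in line #1, 233.4 to 1590.2 in #3, 393.7 to 2377 in #5 and 342.0 to 1819.8 in #10 (log2 change 2.64, SE 0.11, limma adjusted p = 8.1e-05).

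C3ar1 (chromosome 6, 122847138 to 122856161) encodes the receptor for a fragment of complement component C3. It was at 117.2, 213.5, 264.4 and 278.3 with DMSO and at 12.7, 29.0, 29.6 and 41.4 with trametinib, with falls of 6.59-fold in line #10 to 8.68-fold in line #5. The mean fall was the smallest of the 21. C3 itself rose from 34.4 to 285.4 in line #1, 8.09 to 85.9 in #3, 48.0 to 442.4 in #5 and 59.0 to 144.6 in #10 (log2 change 2.68, SE 0.37, limma adjusted p = 0.0014).

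**Figure D3:**
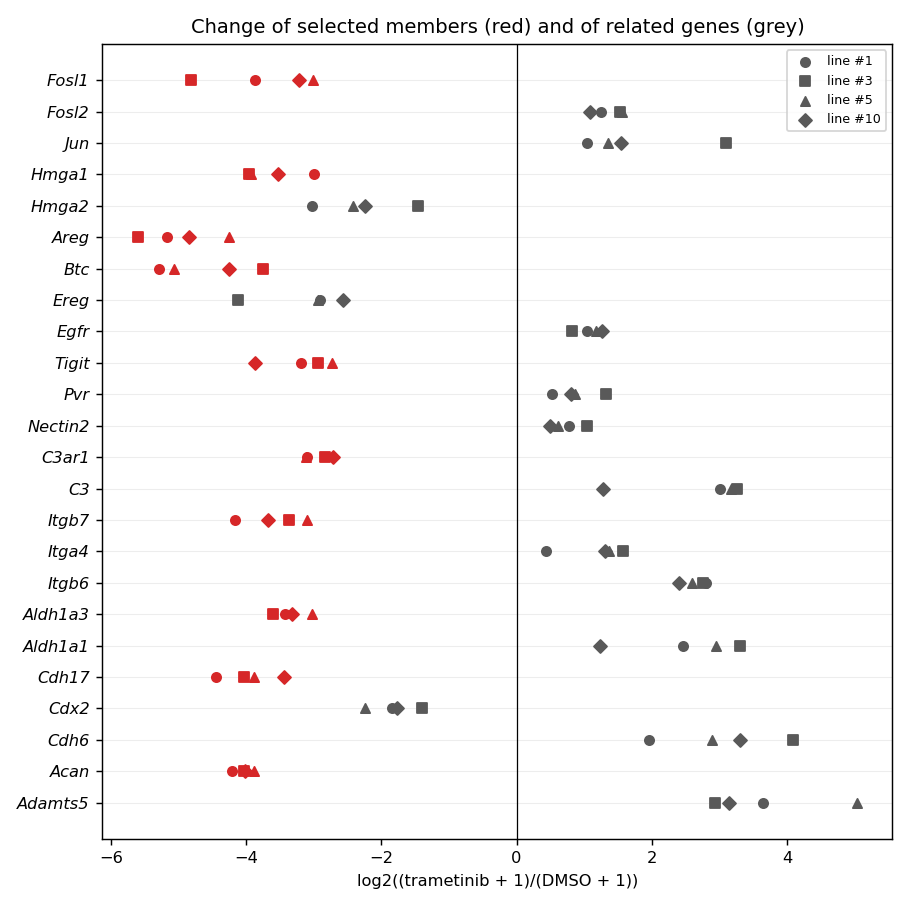
Log2((trametinib + 1)/(DMSO + 1)) by line (marker shapes) for genes of the set (red) and for relatives or partners (grey), with a line at 0. The red points lie at -2.72 or lower, while Fosl2, Jun, Egfr, Pvr, Nectin2, C3, Itga4, Itgb6, Aldh1a1, Cdh6 and Adamts5 lie right of 0 in each line and Hmga2, Ereg and Cdx2 lie left of 0.

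Blood cell markers ranged widely in level in the same libraries, some at 0 and some abundant. Ptprc, the pan-leukocyte gene, was at 7.31, 7.33, 17.2 and 10.6 with DMSO and 4.05, 9.74, 16.6 and 16.5 with trametinib, above the floor in each library, with groups that overlapped. Cd3e did not exceed 0.488, Klrb1c was listed at 0 in each library and Lyz2 did not exceed 1.91. The 7 T and B cell markers summed to 32.6 to 84.9 with DMSO and 22.8 to 58.1 with trametinib, of which Cd3d made up 8.45 to 76.6. Natural killer markers, listed after values were seen (7 of 10 in the table), summed to 31.8 to 147.4 and 76.9 to 113.1, nearly all of it Eomes. Tigit alone exceeded each of these sums with DMSO in every line. Klrc1 and Klrc2, killer cell receptor genes not in that natural killer list, were at 34.8 to 415.4 and 7.33 to 213.0 with DMSO. In line #1 each exceeded 147.4, the highest DMSO sum of the list. Both were lower by 6-fold or more in each line. Macrophage markers (9 of 10 in the table) summed to 3083 to 6380 and 1369 to 3832, but most of this was Cd14 and, with DMSO, Mrc1, which itself met the 6-fold rule. Csf1r rose (log2 change 2.83, limma adjusted p = 0.00068), but did not pass without the pairing. Mast cell and basophil markers (6 of 8 in the table) summed to 371.6 to 636.0 with DMSO and 88.6 to 1484 with trametinib, of which nearly all was Mcpt8, again a gene that met the rule, and Kit. Fibroblast markers summed to 108.3 to 369.2 and 457.8 to 1263, endothelial markers to 35.2 to 63.7 and 63.7 to 836.8, acinar markers to 46.5 to 254.3 and 19.5 to 127.7, and islet markers to 2.34 to 5.27 and 1.27 to 16.3. The part of such cells in the results was not tested.

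The genes nearest to the limit of the rule were as follows. Just inside it, by the smallest fall of the 4 lines, were Prkg2 (6.37-fold in line #5), C3ar1 (6.59 in #10), Tigit (6.62 in #5) and Dmbt1 (6.77 in #1). Just outside were Ereg (5.95 in #10), the phosphatase gene Ptprr (5.79 in #5), the pentraxin gene Nptx1 (5.58 in #3) and Stac (5.56 in #5). Nptx1 shows how 1 line can decide: it went from 241.4 to 17.6 in line #1, 276.1 to 48.6 in #3, 338.9 to 1.599 in #5 and 86.4 to 5.78 in #10. In all, 22 genes passed in 3 lines, with line #10 the one missed in 8, line #1 in 6, line #3 in 5 and line #5 in 3. Among those that fell least in the remaining line were Fam84a (3.28 in #3), Eps8l3 (3.37 in #10) and Pilrb1 (3.66 in #10). A further 18 genes with a mean of 10 or more with DMSO were 6-fold lower in each line but had a DMSO count under 50, among them Prl2c3, Cd53, Gzme, Klrc1, Klrc2 and Csf2.

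Single lines held many more such genes than the 4 shared. Of the 11033 genes, 74 were 6-fold lower in line #1, 157 in #3, 81 in #5 and 58 in #10. Falls of this size were seen in 1 line for 118 genes, in 2 lines for 37, in 3 for 22 and in 4 for 28.

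**Figure D4:**
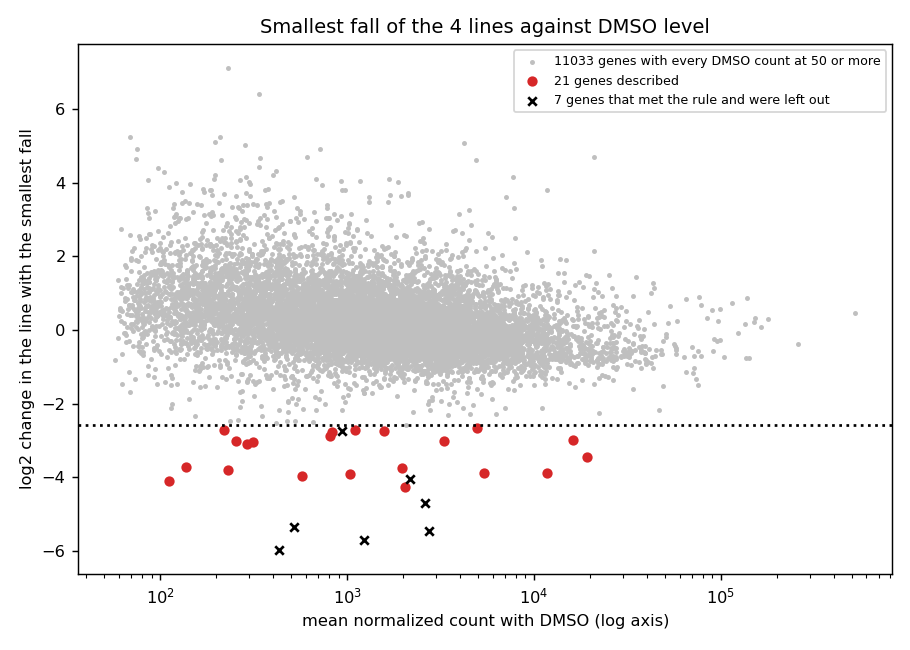
Mean DMSO count (log axis) against the log2 change in the line where a gene fell least, for the 11033 genes with every DMSO count at 50 or more (grey). The 21 genes (red) and the 7 left out (crosses) lie under the dotted line at the 6-fold limit by construction, and spread over DMSO means from 112.0 (Sh2d1b1) to 19134 (Cdh17).

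A set of 6 lists of related genes was counted to show what other outputs did, leaving out the 21. Of 45 tested genes of ERK output, 28 fell (62.2%) and 6 rose (13.3%), against 25.6% lower and 27.3% higher over all genes tested, with a median log2 change of -1.02, and 3 of those that fell (Etv4, Etv5 and Spry4) had met the same fold rule. By line, 30 of the 45 were lower in 4 of 4 and 7 higher in 4 of 4. The dual-specificity phosphatase gene Dusp6, a feedback inhibitor of ERK, fell by 2.51 on the log2 scale and Spry2 by 2.05 (limma adjusted p = 0.00012 and 0.00022). Rising against the list were Vegfa (2.13, SE 0.14, adjusted p = 0.00020 in limma), Jun, Nt5e (1.19, SE 0.15, adjusted p = 0.0012) and Ets1 (1.01, SE 0.16, adjusted p = 0.0026). Without the pairing of libraries by line, 24 of the 45 fell and 3 rose, Ets1 not among them. That fit also gave fewer calls over all genes tested. These lists were chosen with earlier results of these data known.

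Genes of cell division and ribosome assembly fell almost without exception, with medians nearer to 0 than that of the 21, which the rule fixed. All 52 tested DNA replication genes fell, with a median of -1.38, led by E2f2 (-2.33), E2f8 (-2.17), Tk1 (-2.16) and Cdc6 (-1.99). Of 34 mitosis genes 33 fell and 1 did not pass, with a median of -1.34, and Mybl2 (-1.95) and Birc5 (-1.77) fell most. All 32 genes of ribosome biogenesis fell, with a median of -1.24, led by Dkc1 (-2.01) and Ncl (-1.78). The share that fell over all genes tested was 25.6%. None of the 21 genes belongs to these 3 lists.

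Growth factor and matrix genes were split. Of 33 growth factors and cytokines tested besides Areg and Btc, 7 fell and 14 rose in limma, with a median of 0.40. The share that fell was 21.2%, against 25.6% over all genes tested, and the share that rose 42.4%, against 27.3%. Csf2 (-3.57), Ereg (-3.13), Il33 (-2.63) and Tgfa (-1.30) fell most, and Tgfb2 (5.09), Csf1 (3.31), Ccl2 (3.14) and Pdgfa (2.25) rose most. Of 30 proteases and matrix genes, 8 fell and 12 rose, with a median of 0.22. The share that fell was 26.7%, against 25.6% over all genes tested, and the share that rose 40%, against 27.3%. Among those that fell most were Cd44 (-1.32), Itga2 (-1.11) and Itga3 (-0.77), and Tnc (5.11), Adamts5 (3.69), Adamts1 (3.66) and Loxl2 (3.00) rose most. The 8 that fell became 3 without the pairing, Itga2 not among them, and calls over all genes tested dropped as well.

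Relatives by symbol and neighbours on the chromosome were counted in the same way. Relatives were tested for 11 of the 21 genes, 44 in all, of which 11 fell (25%, against 25.6% of all genes tested) and 15 rose (34.1%, against 27.3%). Without the pairing of libraries, which lowered the number of calls over all genes tested as well, 5 of the 44 fell. The 41 nearest tested neighbours on either side lay at a median distance of 79650 bases. Of these, 12 fell (29.3%, against 25.6% of all genes tested) and 8 rose (19.5%, against 27.3%). These became 5 and 3 without the pairing and 7 and 13 with libraries rescaled to equal totals, and 7 and 6 neighbours fell without line #5 and without line #10. Among the neighbours that fell, Ccdc85b shares 1163 exon bases with Fosl1 and AI413582 shares 102 with Hmga1, on the opposite strand. Whether reads of Fosl1 and Hmga1 were counted for these neighbours was not tested. The 21 genes lie on 13 chromosomes.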

How the data were processed

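The authors deposited 1 table of normalized counts per gene symbol, a signal scaled so that libraries can be compared, for 8 libraries. The scaling is not given in the sources used here, and the submitters' processing notes list CASAVA 2.17, Salmon 0.12, DESeq2 1.18 and the build mm10 with no role or order. Whole reads could not be recovered, so no count model was run. The change in a line was calculated as log2((trametinib + 1)/(DMSO + 1)), which understates changes of low genes. Genes outside the set were tested with limma 3.58.1 in R 4.3.3 (eBayes with trend, cell line as a block, 15888 genes with a mean of at least 10), with Benjamini-Hochberg adjustment over all genes tested and a threshold of 0.05. The fit was tested on simulated data. Both libraries of a line carry the number of the same cell line in the labels, and their deviations from the treatment means correlated at 0.631 to 0.724 across genes.

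The set, the lists and the tests were chosen with earlier results of these data known. Values per library are given for the genes with the largest falls, highest levels or widest ranges and for those next to the threshold. Of each list, up to 4 genes per direction are named, and a few items are not reported here. Partner genes and the intestinal and natural killer lists were chosen after values were seen, as were Dusp6, Spry2, Fos and Fosb as examples. Gene positions and exon lengths are from GENCODE M21 on GRCm38, matched by symbol for 21 of 21 genes, and promoters from RefSeq on GRCm38.p6. Alternatives were a pseudocount of 0.1 or of 5, rescaling to equal totals, centring on the median, other filters, no block, eBayes without trend, other limits of the rule, the gene's strand alone for motifs, and each line left out in turn.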

Additional observations from a re-analysis of the deposited data

Results flagged for a closer look

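Of 63 groups of 4 values looked at (the DMSO level, the trametinib level and the log2 change of each of the 21 genes), 3 held a library far from the other 3, where chance at 1 in 20 gives about 3.15. Cdh17 with trametinib was at 292.6 normalized counts in line #1, against 1596 to 1713 in the other lines. Dmbt1 in line #3 was at 5591 with DMSO, against 166.7 to 364.2 in the others, and at 175.6 with trametinib, against 9.18 to 25.6. What sets these libraries apart was not tested.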

How the results depend on the processing

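Without the pairing of libraries by cell line (no replicate block), the genes lower with trametinib in limma numbered 2347 and the genes higher with trametinib 2205, against 4075 and 4341 with it. The lower calls went from 8 to 3 among proteases and matrix genes from 11 to 5 among relatives, from 4 to 1 in the intestinal list and from 12 to 5 among neighbours, and the higher calls from 6 to 3 in the ERK list, from 1 to 0 in the intestinal list and from 8 to 3 among neighbours. On the log2 scale the median change of the members (the 21 genes), -3.95, was -3.77 with a pseudocount of 5, -3.82 with libraries rescaled to equal totals, -3.80 with a 5-fold limit and -4.05 with an 8-fold limit. Equal totals moved the median change of all genes tested by 0.13 and the split of calls to 3284 lower and 5315 higher (7 and 13 among neighbours, 2 higher in the intestinal list). The 1 higher call of that list was 0 with a pseudocount of 0.1, no filter or eBayes without trend, and 0 to 2 with a line left out. Lower calls among neighbours were 6 to 11 with a line left out. The rule gave 19 genes with a pseudocount of 5 (without Chst1 and Dmbt1) or with equal totals (without Prkg2 and Tigit), and 24 with centring on the median. It gave 28 and 16 genes with DMSO minimums of 25 and 100, and 29 and 15 with limits of 5-fold and 8-fold. Leaving out a line gave 26 to 31 genes, the 21 included each time. On the gene's strand alone, the ETS letters were in 1 promoter in place of 2 and CCAAT in 0 in place of 1. The remaining counts over whole lists stayed within 1.5 times, except that 1 mitosis gene passed as higher without line #1. Of 77 single genes named with a limma test, 68 passed it, and none changed sign in a call under the 12 alternatives. Without the pairing, 23 of the 68 lost the call, with adjusted p from 0.054 to 0.72: Parm1, Egfr, Junb, Fosb, Cdh3, Cdh10, Cdh16, Aqp11, Hnf4a, Krt20, Lgals4, Anpep, Sprr1a, Has2, Chst8, Chst12, Chst4, Pvr, Itga4, Itgb4, Csf1r, Ets1 and Itga2. Leaving out line #1 ended 7 calls (Junb, Fosb, Cdh16, Anpep, Has2, Chst8 and Itgb4, limma adjusted p 0.051 to 0.17). Leaving out line #3 ended 3 (Cdh10, Cdh16 and Krt20, 0.058 to 0.10) and gave calls to Aqp1, Vil1 and Tgm1. Leaving out line #5 ended 6 (Junb, Cdh10, Krt20, Anpep, Has2 and Itgb4, 0.070 to 0.12), and line #10 ended 7 (Junb, Cdh10, Cdh16, Aqp11, Krt20, Anpep and Has2, 0.060 to 0.16). The remaining alternatives ended between 0 and 7 calls each, all among Junb, Cdh10, Cdh16, Krt20, Anpep, Has2 and Itgb4, and gave calls to Adamts4 and Vil1. Treated levels of Sh2d1b1 were at the limit that depth allows.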
